A study of Mus musculus with 12 samples.

Results

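Dorsal root ganglia (DRG) of mice given indole-3-propionic acid (IPA) were compared with those of vehicle mice, all taken on day 3 after the sciatic nerve was crushed. The comparison was chosen by its labels alone and holds 6 of the study's 12 libraries, 3 from IPA mice and 3 from vehicle mice. The other 6 libraries (3 IPA, 3 vehicle) came from mice without a crush; they share the estimate of spread in the fit and are otherwise used where stated. All mice were C57BL/6 animals of 6 to 8 weeks, and each library held the pooled L4 to L6 ganglia of 2 mice. IPA in phosphate-buffered saline (PBS), at 20 mg/kg, or PBS alone was given by daily gavage over 10 days. The crush followed, with IPA given for the 3 days after it; the labels do not make clear whether vehicle gavage also went on for those days. No transgene is part of any group, sex is not among the labels, and pooling hides the spread between single mice.

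IPA is an indole that gut bacteria make from dietary tryptophan and that reaches the blood. It is known as a ligand of the pregnane X receptor, and indoles as a class also act on the aryl hydrocarbon receptor; both are transcription factors that switch on genes of xenobiotic metabolism once a ligand has bound. The L4 to L6 ganglia hold the cell bodies of the sensory neurons whose axons run in the sciatic nerve, wrapped by satellite glia, with Schwann cells, macrophages, vessels and a connective tissue capsule around them. A nerve crush cuts those axons and leaves their sheath in place, and the neurons then switch on a programme of regeneration genes, among them Atf3, Jun, Sprr1a and Gap43.

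Values are read counts scaled to library size by the authors (CPM-like), and differences are IPA minus vehicle on a log2(value + 0.5) scale, which understates the change of low genes. Recovered reads came to between 40938034 and 62501969 per library. Markers of the labelled tissue were present: Prph, a filament of small sensory neurons, stood at 1692 to 2217 and Calca, which encodes CGRP, at 856 to 995 in the 6 libraries. Of 12 spinal cord glia and neuron genes 4 passed the filter, and Opalin and Neurod2 were at 0 in all 6 libraries; the oligodendrocyte gene Mobp, below the filter, read 0.358, 0.817 and 0.502 under vehicle and 0.235, 0.298 and 0.109 under IPA. In each group 1 library stood apart. Chi-square per degree of freedom was 26.3 and 24.1 between vehicle replicate 1 and the other vehicle libraries, against 5.38 between those. In IPA replicate 3 it was 22.4 and 11.2, against 6.74 between the other IPA libraries. The first principal component of the 6 libraries, with 43% of the variance, placed vehicle replicate 1 at -24.2 and the others between 0.87 and 7.75. Gene list counts that moved by over 1.5 times without these libraries are given without them as well. Separate pools of mice make the replicates biological, so p-values set the difference between groups against a spread between pools. That spread was estimated within groups over all 12 libraries, with information shared between genes.

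Differences between IPA and vehicle ganglia after the crush were small. No gene of the 15274 tested (0.0%) passed an adjusted p under 0.05 with limma, where the smallest adjusted p was 0.365, or with edgeR (0.0%; smallest adjusted p = 0.287). At an unadjusted p under 0.05 the tools gave 1236 (8.09%) and 1195 genes. DESeq2 called 15 genes (0.0982%), 9 higher and 6 lower under IPA. The 95% interval of the difference lay within 1.5-fold for 14722 genes (96.4%), and in limma's fit of log2(value + 0.5) no gene differed more than 2-fold, 5 were past 1.5-fold higher and 20 lower. Without the 0.5 added to each value, low genes can differ by more: DESeq2 put the low gene Fgfbp3 at a log2 difference of 1.14. The median difference over all genes was -0.002, 49.1% of genes lay above 0, and the median standard error was 0.0828.

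**Figure D1:**
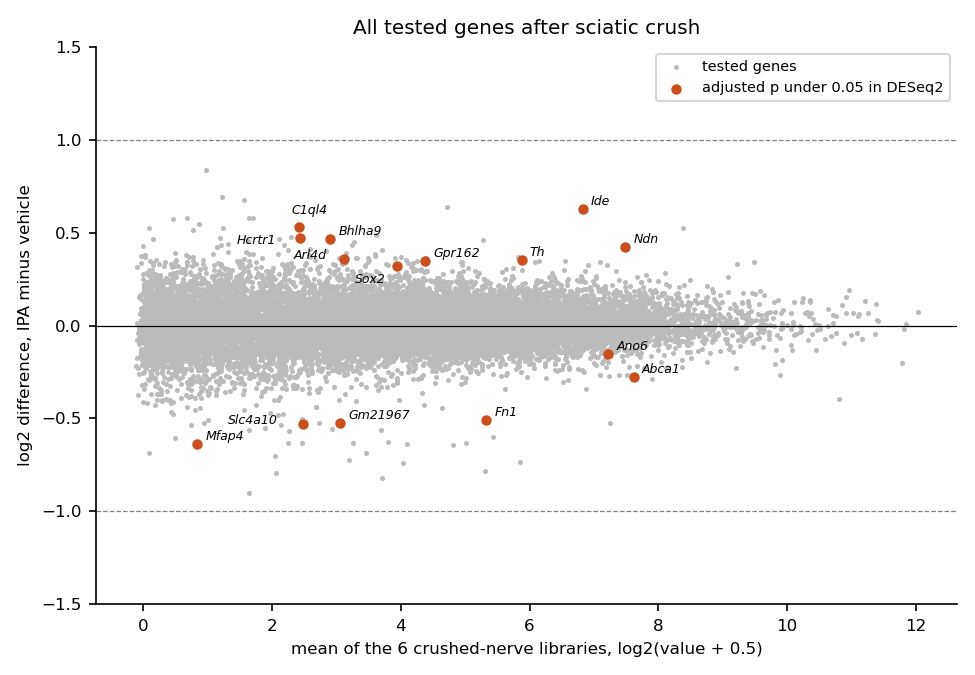
The log2 difference between IPA and vehicle ganglia after crush (vertical axis) is plotted against the log2 of the mean level of the 6 libraries (horizontal axis), with 1 grey point for each of the 15274 tested genes. Orange points are the 15 genes with an adjusted p under 0.05 in DESeq2; dashed lines mark a 2-fold difference on this scale of log2(value + 0.5), which no gene passed.

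The 12 genes with the smallest p in the higher direction began with Ndn, which encodes necdin, a growth-restraining protein of post-mitotic neurons made only from the paternal allele (ENSMUSG00000033585, chr7:62346569-62350262 on the plus strand of GRCm38). Ndn read 149.9, 158.0 and 150.6 in the vehicle libraries and 222.5, 181.3 and 212.9 under IPA. All 3 IPA libraries lay above all vehicle libraries, with replicate 2 the closest to them. The difference was 0.42 ± 0.07 (SE), a 1.34-fold higher level with a 95% interval of 1.204 to 1.49 (limma adjusted p = 0.365; DESeq2 adjusted p = 0.000471). Ndn was the gene called by limma when IPA replicate 2 was left out (adjusted p = 0.0404).

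Th encodes tyrosine hydroxylase, the rate-limiting enzyme of dopamine synthesis, and in these ganglia marks low-threshold C-fibre mechanoreceptors (chr7:142892752-142931128, minus strand). It read 53.3, 46.2 and 53.8 in vehicle and 66.5, 61.7 and 67.6 in IPA libraries, and the groups did not overlap. The difference was 0.35 ± 0.07, or 1.28-fold (95% interval 1.16 to 1.41; limma adjusted p = 0.365, DESeq2 0.00350). Dbh, which encodes the enzyme that turns dopamine into noradrenaline, was below the filter, at 0.318, 1.27 and 0.781 in vehicle and 0.196, 0.425 and 0.273 in IPA libraries, so the groups overlapped.

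Sox2, a transcription factor of satellite glia and immature Schwann cells (chr3:34650405-34652461, plus strand), read 12.5, 13.4 and 13.4 under vehicle and 17.1, 15.5 and 16.9 under IPA. Its groups did not overlap either, and the difference was 0.32 ± 0.06 (DESeq2 adjusted p = 0.00679). The receptor gene Hcrtr1, for the arousal peptide orexin (chr4:130130217-130139359, minus strand), read 4.18, 3.59 and 4.27 against 6.38, 5.41 and 5.47, a difference of 0.47 ± 0.09. Gpr162, an orphan receptor gene, read 17.1, 17.7 and 18.4 against 23.1, 22.8 and 22.2, with narrow ranges on both sides. C1ql4, for a secreted C1q-like protein, read 3.82, 3.96 and 3.87 against 6.25, 6.21 and 5.11. The basic helix-loop-helix gene Bhlha9 differed by 0.47 ± 0.08 and the small GTPase gene Arl4d by 0.36 ± 0.07. The lipid droplet gene Cidea, at 1.26 to 1.51 under vehicle and 1.84 to 2.44 under IPA, and the lysosome-related organelle gene Bloc1s4, at 6.25 to 6.99 and 8.09 to 9.14, were not called by DESeq2 (adjusted p = 0.0956 and 0.0849).

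**Figure D2:**
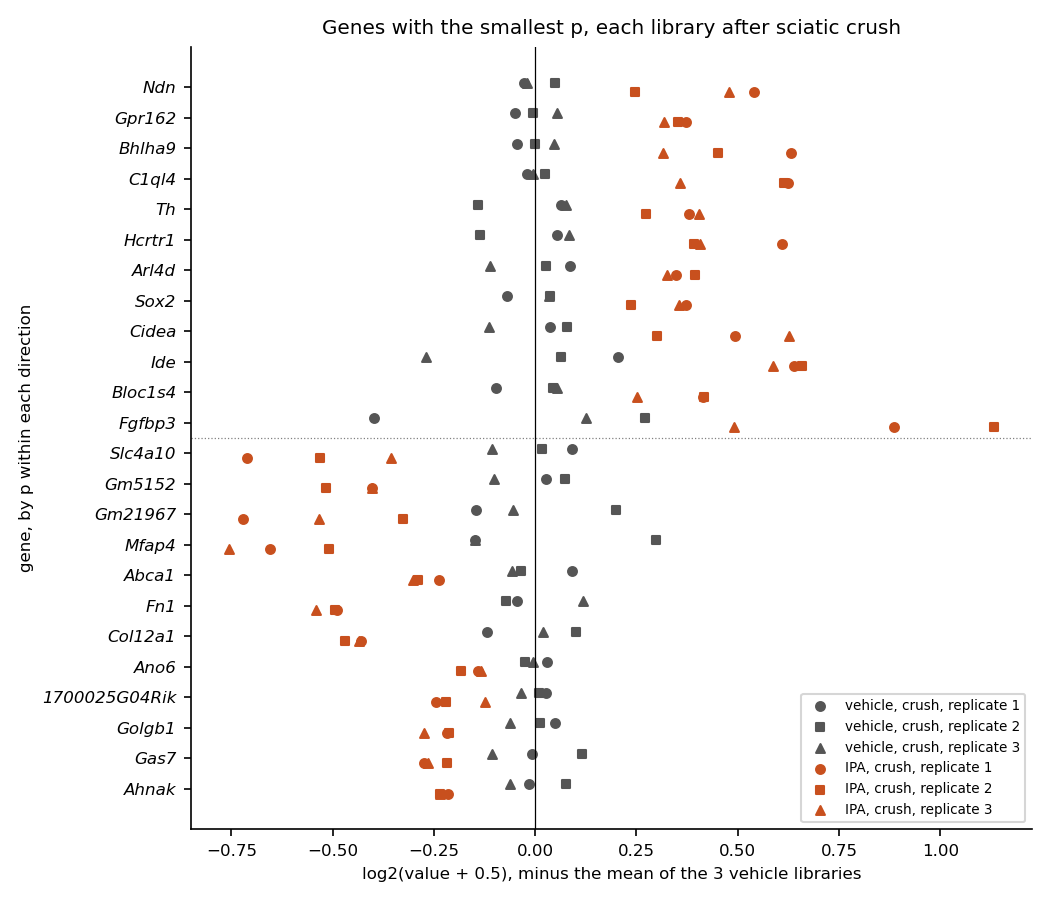
Each point is 1 library after crush (grey vehicle, orange IPA; marker shape gives the replicate), placed by its log2(value + 0.5) minus the mean of the 3 vehicle libraries, for the 12 genes with the smallest p in each direction. In all 24 genes the groups do not overlap, as the choice by smallest p favours; Ide and Fgfbp3 have the widest vehicle spread.

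Ide, for the insulin-degrading enzyme, was the highest difference among the 15 genes DESeq2 called. It read 101.7, 92.2 and 73.0 in vehicle and 137.4, 139.4 and 132.8 in IPA libraries, so the IPA libraries were close together and the vehicle libraries spread. The difference was 0.63 ± 0.14, or 1.54-fold (95% interval 1.249 to 1.912; limma adjusted p = 0.570, DESeq2 0.0144). Fgfbp3, for a secreted protein that binds fibroblast growth factors, was low, at 0.557, 1.18 and 1.02 against 2.07, 2.55 and 1.45. It differed by 0.84 ± 0.20 (limma adjusted p = 0.570, DESeq2 0.085) and was not called by DESeq2. Both lie on chromosome 19, Fgfbp3 at 36917550 to 36919615 (minus strand) and Ide at 37268743 to 37337852 (minus strand). Btaf1, for an ATPase that removes the TATA-binding protein from DNA, lies between them at 36926079 to 37012752 and was looked up after the values of its neighbours were seen. It read 24.6, 19.2 and 16.8 against 32.0, 33.0 and 29.2, a difference of 0.64 ± 0.18 with no overlap (limma adjusted p = 0.570, DESeq2 0.396).

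Cpeb3 and March5, which lie between Btaf1 and Ide, had overlapping groups and differences of 0.04 ± 0.07 and 0.07 ± 0.05. Without a crush, Ide read 75.2, 113.9 and 84.5 under vehicle and 121.7, 133.7 and 102.2 under IPA, so there 1 vehicle library lay among the IPA libraries. In the same libraries Btaf1 read 20.6, 36.2 and 21.9 against 33.3, 38.0 and 29.9, and it was again vehicle replicate 2 that was high. A stretch of chromosome 19 with Ide and Fgfbp3 is known to vary in copy number within C57BL/6J stocks; the labels name the strain only as C57BL/6, and copy number in these mice was not tested.

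**Figure D3:**
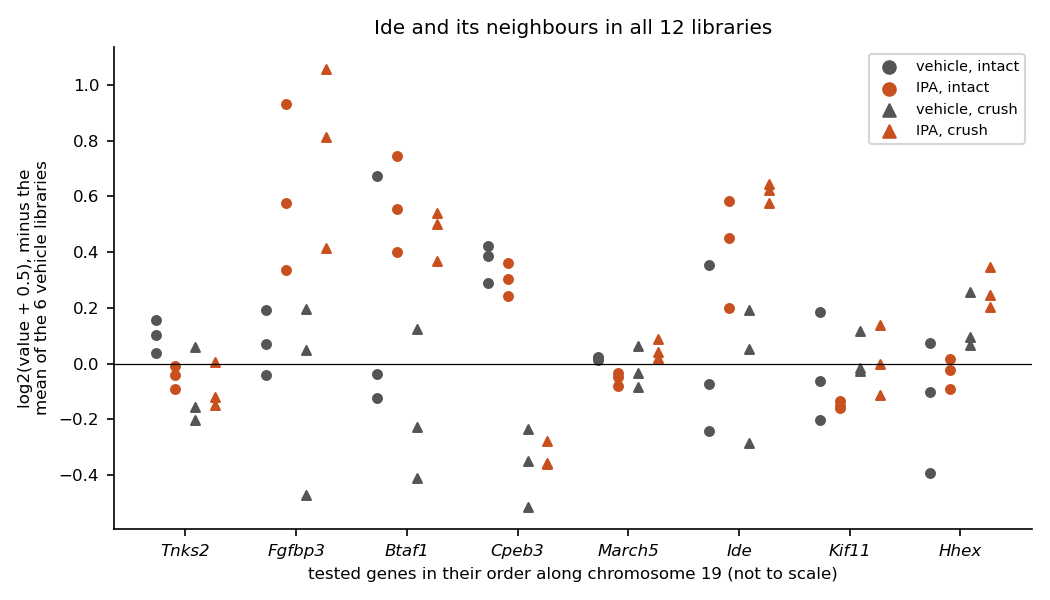
Levels of 8 tested genes in their order along chromosome 19, as log2(value + 0.5) minus the mean of the 6 vehicle libraries, with 1 point per library (circles without crush, triangles after crush; grey vehicle, orange IPA). Fgfbp3, Btaf1 and Ide are higher in the IPA libraries after crush, while Cpeb3 and March5, which lie between Btaf1 and Ide, overlap.

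Among the 12 genes with the smallest p in the lower direction were 3 of the extracellular matrix. Fn1 encodes fibronectin (chr1:71585520-71653200, minus strand) and read 45.1, 44.2 and 50.5 in vehicle and 33.0, 32.9 and 31.8 in IPA libraries. The IPA libraries were close together and all lay below the vehicle libraries, a difference of -0.51 ± 0.11, or 0.703 times the vehicle level (95% interval 0.596 to 0.830; limma adjusted p = 0.495, DESeq2 0.0136). Mfap4, for a glycoprotein of elastic microfibrils (chr11:61485431-61488900, plus strand), was low, at 1.45, 2.16 and 1.45 against 0.874, 1.02 and 0.782, a difference of -0.64 ± 0.14 (DESeq2 0.0496). Col12a1, for a collagen found on the surface of fibrils, read 26.1, 30.4 and 28.7 against 20.9, 20.3 and 20.8 (-0.45 ± 0.11; DESeq2 0.0600).

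The other lower genes included transporters and large cytoplasmic proteins. Slc4a10, for a sodium-coupled bicarbonate transporter of neurons and choroid plexus, read 6.504, 6.154 and 5.61 against 3.52, 4.05 and 4.64 (-0.53 ± 0.11; DESeq2 0.00437). Abca1, for the pump that loads cholesterol onto lipoproteins, read 227.9, 209.0 and 205.8 against 181.5, 175.1 and 173.6, a difference of -0.28 ± 0.06 with no overlap (DESeq2 0.0444). Ano6, for a phospholipid scramblase, differed by -0.15 ± 0.04 and was called by DESeq2 (0.0370), at 153.6 to 159.6 under vehicle and 137.5 to 142.5 under IPA. The Golgi tether gene Golgb1, Gas7 and the giant scaffold gene Ahnak differed by -0.24, -0.25 and -0.23. The predicted genes Gm21967 (called by DESeq2, 0.0136), Gm5152 and 1700025G04Rik, with no known role, complete the 12.

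Most connective tissue genes beyond these pointed the same way. Their list, like all lists here, was chosen with earlier results of these data known, so it is no separate check. The list of fibroblast and meningeal genes, which holds neither Fn1, Mfap4 nor Col12a1, had 22 measured members, of which 21 lay below 0; the exception was Col1a2 at 0.01 ± 0.12. At an unadjusted p under 0.05, 8 of 22 were lower and none higher, where 3.5% of all genes were lower, and in 7 of 22 every IPA library lay below every vehicle library, against 5.55% of all genes. None passed after adjustment over all genes, and the list median was -0.14. Summed over the list, the vehicle libraries stood at 1373, 1499 and 1516 and the IPA libraries at 1213, 1324 and 1345. Leaving out 1 of the 6 libraries gave between 4 and 10 lower members. The 4 came without vehicle replicate 2 or IPA replicate 1, where 5.36% and 2.7% of all genes were lower. The 10 came without vehicle replicate 1, where 2.61% were. The median without IPA replicate 1 was -0.08. Without both libraries that stood apart, 8 members were lower, against 4.44% of all genes in that fit, and the median was -0.27. In bulk ganglia, fewer cells of a type and less RNA per cell cannot be told apart.

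The 8 lower members include genes of growth, matrix, retinoic acid and transport. Igf2, an imprinted growth factor gene, read 45.3, 54.1 and 54.9 in vehicle and 32.6, 36.1 and 32.5 in IPA libraries (-0.60 ± 0.17, limma adjusted p = 0.570). H19, an imprinted non-coding RNA next to Igf2 on chromosome 7 and no member of the list, read 18.2, 23.9 and 19.2 against 13.6, 12.2 and 12.8 (-0.64 ± 0.19). Neither gene's groups overlapped. Fmod, for the small matrix proteoglycan fibromodulin, read 5.37, 5.41 and 7.20 against 3.53, 4.41 and 4.22. Aldh1a2, which makes retinoic acid, read 4.26, 4.38 and 4.48 against 2.95, 3.53 and 3.11, and Crabp2, which carries it, 2.74, 2.83 and 2.85 against 2.26, 2.30 and 1.67. Ptgds, for prostaglandin D synthase, the transporter genes Slc6a13 and Slc22a6 and the collagen gene Col3a1 differed by -0.53, -0.36, -0.42 and -0.24. Dcn and Pdgfra, which mark fibroblasts in general, differed by -0.14 and -0.08 with overlapping groups. Of 8 bone and cartilage genes, 7 lay below 0, the cartilage matrix gene Chad at -0.35 ± 0.14. At an unadjusted p under 0.05, 2 were lower and 1 higher, as were 3.5% and 4.6% of all genes. Without IPA replicate 3, 3 of the 8 lay above 0.

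**Figure D4:**
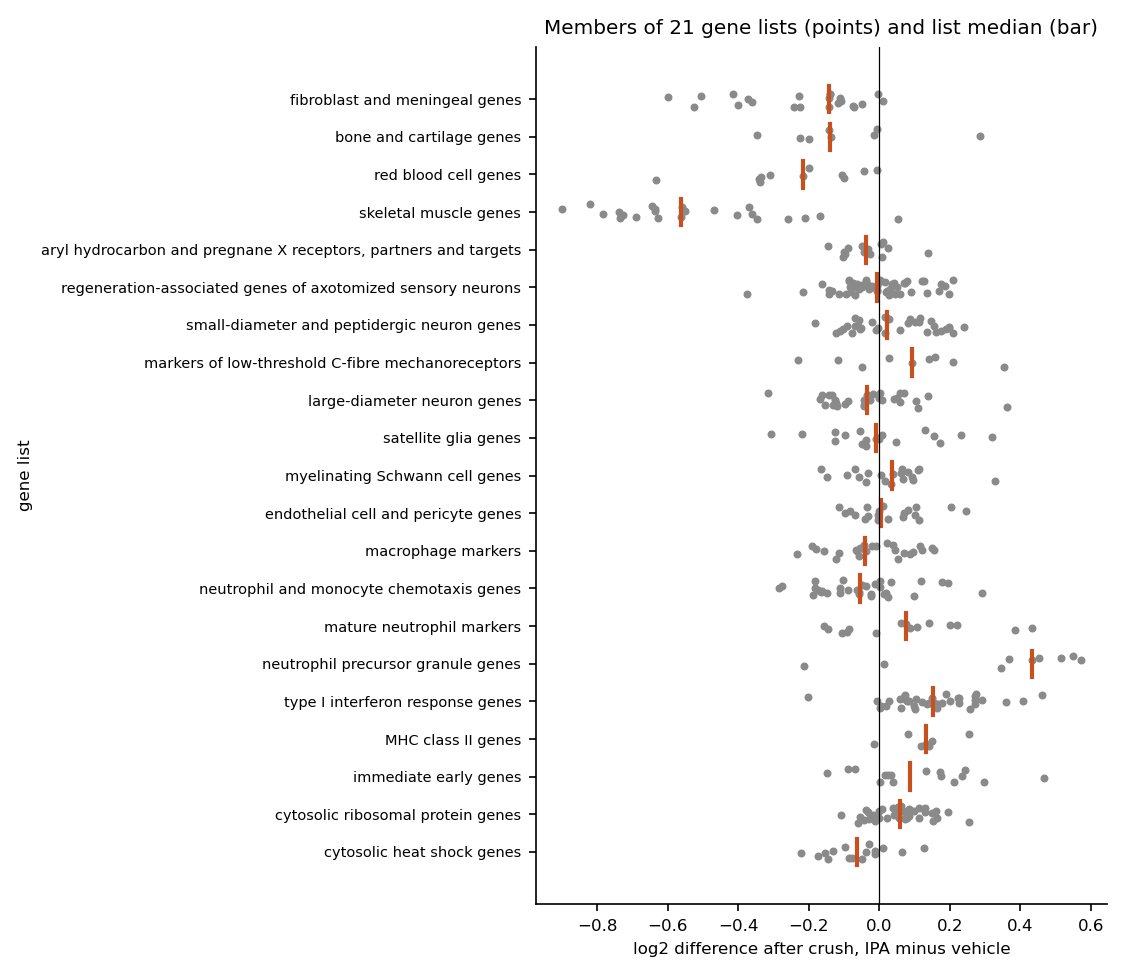
Each grey point is the log2 difference between IPA and vehicle ganglia after crush of 1 measured gene, for 21 of the 32 gene lists (rows); the orange bar is the list median. Fibroblast and meningeal, muscle and red blood cell genes lie mostly below 0, type I interferon and neutrophil granule genes mostly above it, and no point passed limma's test after adjustment.

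The receptors that IPA is known to engage and their targets showed little difference. Promoter windows of 3 target genes of the aryl hydrocarbon receptor are given from RefSeq (GRCm38.p6), 250 bases before to 50 after the start. The receptor's core motif is in capitals (GCGTG, or CACGC where it lies on the other strand). Sequence outside the windows was not searched, and whether the receptor acts on them was not tested. Cyp1b1 is at chr17:79715012-79715311 (minus strand), Tiparp at chr3:65528197-65528496 (plus strand) and Ahrr at chr13:74292282-74292581 (minus strand).
Cyp1b1: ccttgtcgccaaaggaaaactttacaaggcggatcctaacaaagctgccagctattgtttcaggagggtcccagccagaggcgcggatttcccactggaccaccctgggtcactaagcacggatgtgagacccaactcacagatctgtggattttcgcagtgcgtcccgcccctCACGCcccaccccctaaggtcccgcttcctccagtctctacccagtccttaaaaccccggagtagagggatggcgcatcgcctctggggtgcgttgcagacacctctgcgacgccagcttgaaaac
Tiparp: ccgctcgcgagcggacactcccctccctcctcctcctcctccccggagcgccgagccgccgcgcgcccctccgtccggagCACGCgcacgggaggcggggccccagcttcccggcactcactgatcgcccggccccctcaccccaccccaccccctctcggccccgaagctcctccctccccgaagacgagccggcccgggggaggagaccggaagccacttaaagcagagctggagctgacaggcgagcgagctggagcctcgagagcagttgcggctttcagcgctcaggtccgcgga
Ahrr: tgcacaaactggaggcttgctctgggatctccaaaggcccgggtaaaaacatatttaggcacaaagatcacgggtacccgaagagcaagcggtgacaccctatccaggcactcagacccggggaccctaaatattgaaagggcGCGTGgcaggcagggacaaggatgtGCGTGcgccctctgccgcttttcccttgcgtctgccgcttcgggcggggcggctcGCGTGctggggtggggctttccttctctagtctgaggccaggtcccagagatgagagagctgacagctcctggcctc
The Ahrr window holds 3 matches and the others 1 each. Of the 11 tested members of the receptor list with a RefSeq promoter, 5 (45.5%) held the motif, against 32.4% of all 32851 promoters and 50.4% of the first listed promoters of tested genes. A match is a run of letters and not a bound site.

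Cyp1b1, for a cytochrome P450 induced by the aryl hydrocarbon receptor, read 107.1, 94.7 and 96.8 in vehicle and 88.0, 91.8 and 89.4 in IPA libraries. The IPA libraries were the lower ones, without overlap, and the difference was -0.15 ± 0.06 (unadjusted p = 0.0285, limma adjusted p = 0.597). Tiparp and Ahrr, which both restrain the receptor and are among its targets, read 34.0, 29.2 and 28.0 against 27.2, 27.4 and 30.9, and 1.89, 1.53 and 1.95 against 1.54, 1.49 and 1.87. Both overlapped between groups, with differences of -0.09 ± 0.08 and -0.10 ± 0.11. The receptor gene Ahr read 21.9, 21.5 and 22.05 against 21.1, 21.8 and 23.1. Of the 23 listed members 14 were measured. Among these 9 lay below 0 and 5 above, where 49.1% of all genes lay above 0. Cyp1b1 was the 1 member with an unadjusted p under 0.05, and 3.5% of all genes were lower at that threshold. The classic target Cyp1a1 was below the filter, at 7 to 11 reads under vehicle and 7 to 16 under IPA, as was Nr1i2, the pregnane X receptor gene, at 3 to 5 and 2 to 10 reads. Cyp3a11, a target of the pregnane X receptor in liver, had no read in the 6 libraries.

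Genes of small-diameter sensory neurons were more often higher than lower at the unadjusted threshold. Of 35 measured members, 8 were higher and none lower at p under 0.05, where 4.6% of all genes were higher, and in 7 every IPA library lay above every vehicle library, against 5.84% of all genes. Yet 20 of 35 lay above 0 and the median was 0.02, so the list as a whole was centred near 0. Vehicle replicate 1 moved with this: without it 32 of 35 lay above 0, the median was 0.09 and 10 were higher, against 3.47% of all genes in that fit. Without IPA replicate 2 the higher members numbered 4, against 2.44% of all genes in that fit, and without vehicle replicate 2 they numbered 5, against 6.0%.

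The 8 members were Prdm12 and Runx1, which specify pain-sensing neurons, the peptide genes Calca, Calcb and Tac1, the neurturin receptor gene Gfra2, the filament gene Prph and the lysophosphatidic acid receptor gene Lpar3. Prdm12 read 112.0, 115.1 and 119.6 in vehicle and 145.2, 142.6 and 122.9 in IPA libraries (0.24 ± 0.06, limma adjusted p = 0.570). IPA replicate 3 was the closest to vehicle there, and also in Gfra2, at 111.6, 119.2 and 110.3 against 136.7, 137.5 and 120.6. Calcb, for the second form of CGRP, read 69.5, 67.5 and 61.9 against 76.3, 78.6 and 73.5, and Calca 933.2, 872.2 and 855.9 against 982.0, 995.2 and 943.8. The heat receptor gene Trpv1 read 120.1, 115.6 and 117.9 against 120.2, 125.2 and 134.2, a difference of 0.10 ± 0.05. Of 9 measured markers of C-fibre mechanoreceptors, 6 lay above 0. Th and Gfra2 were higher at an unadjusted p under 0.05, as were 4.6% of all genes, and Gfra2 is counted in both lists.

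Large-diameter neuron genes were centred near 0. Of 31 members, 11 lay above 0, where 49.1% of all genes did, with 3 lower and 2 higher at an unadjusted p under 0.05 (3.5% and 4.6% of all genes) and a median of -0.03. Kcna1, for a potassium channel of myelinated axons, read 380.0, 349.1 and 369.0 under vehicle and 333.6, 337.9 and 322.9 under IPA, with no overlap (-0.14 ± 0.05). The calcium-binding protein gene Pvalb and the transcription factor gene Etv1, both of muscle-sensing neurons, differed by -0.17 and -0.16. Pvalb is expressed in skeletal muscle as well and is also a member of the muscle list, so its level is part of that list's sum. It read 65.2, 56.5 and 63.9 under vehicle and 62.2, 52.9 and 50.2 under IPA, and the part of muscle in its difference was not tested. Mafa and Maf, transcription factor genes of touch neurons, differed by 0.36 and 0.14. Isl2, for a transcription factor of sensory and motor neurons, was the gene limma called when IPA replicate 3 was left out (0.46, adjusted p = 0.0429).

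The regeneration programme that the crush sets off showed small differences between the groups. Of 54 measured members, 25 lay above 0 and 29 below, the median was -0.006, and 3 were higher and 2 lower at an unadjusted p under 0.05 (4.6% and 3.5% of all genes). In 6 of 54 every IPA library lay below every vehicle library and in 2 above, against 5.55% and 5.84% of all genes. Gap43, for a growth cone protein, read 542.6, 602.3 and 598.1 in vehicle and 609.1, 611.9 and 566.2 in IPA libraries, a difference of 0.04 ± 0.07. Jun differed by 0.18 ± 0.09 and the keratinocyte-type envelope gene Sprr1a by 0.12 ± 0.19, both with overlapping groups. Atf3, the injury-induced transcription factor, read 525.1, 510.3 and 517.5 against 482.3, 466.4 and 465.5, the IPA libraries all lower (-0.13 ± 0.05, limma adjusted p = 0.596). Marcks and Basp1, which both bind the membrane of growth cones, differed by 0.21 and 0.20, and the peptide gene Nmb by 0.17. Vip, a peptide gene, read 0.298, 0.762 and 0.642 against 0.209, 0.510 and 0.236 with overlapping groups.

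Neutrophil genes varied widely between libraries. Of 9 measured granule genes of neutrophil precursors, 8 lay above 0, with a median of 0.43, and none had an unadjusted p under 0.05. In 1 of 9, Prtn3, every IPA library lay above every vehicle library, against 5.84% of all genes. The summed level of the list was 36.5, 68.5 and 44.2 in vehicle and 53.6, 33.5 and 128.2 in IPA libraries. In that sum IPA replicate 3 alone lay above all vehicle libraries. Without it 4 of 9 lay above 0 and the median was -0.05, and without both libraries that stood apart 1 of 9 did. Ltf, for lactoferrin, read 9.17, 17.1 and 10.5 against 14.3, 7.17 and 34.7, and S100a8 read 7.90, 13.3 and 6.20 against 9.13, 6.04 and 26.9. Of 15 mature neutrophil markers, 9 lay above 0 with a median of 0.07, and without IPA replicate 3 there were 3 and the median was -0.19. Of 32 chemotaxis genes, 11 lay above 0, and 4 without IPA replicate 3, 7 without vehicle replicate 1, 16 without IPA replicate 1 and 2 without both libraries that stood apart. The integrin gene Itga9 and the chemokine gene Ccl9 were lower at an unadjusted p under 0.05 (-0.18 ± 0.07 and -0.29 ± 0.12), as were 3.5% of all genes. The chemokine gene Cxcl1 was below the filter, with 1, 4 and 7 reads under vehicle and 11, 16 and 10 under IPA, and was not tested.

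Type I interferon response genes lay above 0 in 38 of 40 cases, with a median of 0.15. The exceptions were Parp9 at -0.01 and Zbp1 at -0.20. Only Rsad2, an antiviral enzyme gene, and Lgals3bp had an unadjusted p under 0.05, at 0.41 ± 0.18 and 0.19 ± 0.09. At that threshold 4.6% of all genes were higher. Rsad2 read 11.7, 9.78 and 9.96 against 11.02, 12.3 and 20.2, IPA replicate 3 far above the rest. Without that library 25 of 40 lay above 0 and the median was 0.05; without both libraries that stood apart the values were 33 of 40 and 0.07. Isg15, a ubiquitin-like interferon product, read 4.91, 4.67 and 4.07 against 5.42, 5.38 and 5.95 with no overlap (0.27 ± 0.16). Of 7 MHC class II genes, 6 lay above 0 (median 0.13, and 0.07 without IPA replicate 3), H2-Ab1 at 20.6 to 22.9 under vehicle and 23.8 to 27.8 under IPA. Of 28 macrophage markers, 11 lay above 0 (median -0.04) and none had an unadjusted p under 0.05. Without IPA replicate 1 there were 19 above 0 and the median was 0.04, and without both libraries that stood apart there were 6.

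Satellite glia genes were mixed. Of 19 members, 8 lay above 0. At an unadjusted p under 0.05, 3 were higher and 2 lower, as were 4.6% and 3.5% of all genes. Beside Sox2, its relative Sox10, a factor of all peripheral glia, read 69.5, 87.2 and 83.4 against 97.2, 91.5 and 92.1, with no overlap (0.23 ± 0.07), and the adhesion gene Cadm4 differed by 0.17 ± 0.08. Kcnj10, for the potassium channel by which these glia buffer potassium, read 66.7, 61.8 and 54.6 against 52.8, 54.5 and 49.5, also with no overlap (-0.22 ± 0.06). Fabp7, a lipid carrier gene of satellite glia, read 119.9, 96.8 and 86.0 against 84.2, 88.3 and 70.9, and its groups overlapped (-0.31 ± 0.10). Of 20 myelinating Schwann cell genes 13 lay above 0, but 6 without vehicle replicate 1 and 5 without both libraries that stood apart. At an unadjusted p under 0.05, 1 of them was lower, the scaffold gene Drp2 (-0.16), beside 3.5% of all genes. Of 20 endothelial genes 11 lay above 0, and 7 without vehicle replicate 1, 15 without IPA replicate 1 and 5 without both; the tight junction gene Cldn5 was at 0.24 ± 0.10.

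Skeletal muscle and red blood cell genes were mostly below 0. Summed skeletal muscle genes stood at 539.4, 215.2 and 500.3 in vehicle and 515.2, 248.0 and 139.9 in IPA libraries. Of 23 measured, 22 lay below 0 (the exception was Cox6a2 at 0.05), with a median of -0.56 that was -0.09 without IPA replicate 3, -1.07 without IPA replicate 1 and 0.21 without both libraries that stood apart; 9 lay above 0 without IPA replicate 3 and 19 without both. Acta1, skeletal actin, read 90.0, 30.8 and 82.4 against 87.1, 38.9 and 14.3. All 11 red blood cell genes lay below 0, with a median of -0.22 that was -0.33 without vehicle replicate 1, -0.48 without IPA replicate 3 and -0.58 without both. Alas2, for the first enzyme of heme synthesis in red cells, read 4.93, 5.75 and 5.07 against 2.75, 2.68 and 4.42 (-0.63 ± 0.18). The part of muscle, blood or capsule carried along at dissection in any difference given here was not tested.

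Immediate early and housekeeping lists differed by small amounts. Of 16 immediate early genes, 13 lay above 0, where 49.1% of all genes did, and 4 were higher at an unadjusted p under 0.05, as were 4.6% of all genes. Fosb read 0.358, 0.490 and 0.447 under vehicle and 0.860, 0.893 and 0.618 under IPA (0.47 ± 0.12), and Junb 21.5, 26.9 and 24.9 against 31.1, 30.2 and 28.7 (0.30 ± 0.10), both with no overlap. Ier3 and Ier2 differed by 0.24 each. Of 40 ribosomal protein genes, 30 lay above 0 and 6 were higher at that threshold, Rpl13 at 0.25 ± 0.08 and Rps20 at 0.13 ± 0.05, with a list median of 0.06; the shares of all genes were again 49.1% and 4.6%. With 1 library left out, 2 to 9 ribosomal genes were higher, 2 without vehicle replicate 1 and 9 without vehicle replicate 2 (3.47% and 6.0% of all genes). Without IPA replicate 3, 5 were higher and 4 lower (8.21% and 5.43% of all genes). Without both libraries that stood apart, 4 were higher and 4 lower (6.57% and 4.44%). Among 33 respiratory chain genes 5 were higher at that threshold, beside the same 4.6% of all genes, Cox5a at 0.22 ± 0.09 and Uqcrfs1 at 0.14 ± 0.04. Of 28 lipid synthesis genes, Mvk of cholesterol synthesis and the regulator gene Srebf1 were higher (0.20 and 0.22) and Acaca of fatty acid synthesis lower (-0.16). Of 17 circadian clock genes 10 lay above 0. At an unadjusted p under 0.05, 1 was higher and 1 lower, as were 4.6% and 3.5% of all genes. The higher one, the clock output gene Dbp, read 6.80, 10.1 and 12.8 against 13.9, 13.4 and 13.8 (0.49 ± 0.16). Heat shock genes lay below 0 in 13 of 16 cases, Hsph1 at -0.22 ± 0.07, and the endoplasmic reticulum chaperone gene Hsp90b1 at -0.18 ± 0.07. Slc7a11, the cystine importer, differed by -0.35 ± 0.13 and thioredoxin, Txn1, by 0.12 ± 0.05. Of 22 cell cycle genes 8 lay above 0 (4 without IPA replicate 3, 12 without IPA replicate 1 and 3 without both libraries that stood apart), and Prc1 was lower (-0.21 ± 0.08).

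The same contrast in ganglia without a crush shares no library with this one, but it shares the estimate of spread. Choice by smallest p after crush therefore also favours a small p there. Without a crush, 10 of the 12 leading higher genes also lay above 0, 7 of them at an unadjusted p under 0.05. Of the 12 lower genes 9 lay below 0, 1 of them at that threshold. Over all genes 12.2% had such a p without a crush, with either sign. Hcrtr1 differed by nearly the same amount in both states (0.47 ± 0.09 and 0.41 ± 0.09). Of the 1236 genes with an unadjusted p under 0.05 after crush, 85.4% had the same sign without a crush, as had 70.3% of all genes. With each library's trend on GC content and length removed, these shares were 77.3% and 62.7%.

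For other leading genes the values in the 2 states lay further apart. No gene passed the interaction, which tests whether the IPA difference after crush equals that without it, in limma (smallest adjusted p = 0.647) or edgeR; 315 (2.06%) and 335 genes had an unadjusted p under 0.05, and DESeq2 called 3. Ndn was 0.02 ± 0.07 without a crush and Sox2 -0.002 ± 0.064, so the interactions were 0.40 ± 0.10 and 0.32 ± 0.09. Fn1 was 0.23 ± 0.11 and Mfap4 0.53 ± 0.14 there, in each case with the opposite sign to that after crush, with interactions of -0.73 ± 0.16 and -1.17 ± 0.20 (limma adjusted p = 1.00 and 0.647). The fibroblast and meningeal list had a median of 0.06 without a crush, with 18 of 22 above 0, and 8 of 22 had an unadjusted interaction p under 0.05.

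**Figure D5:**
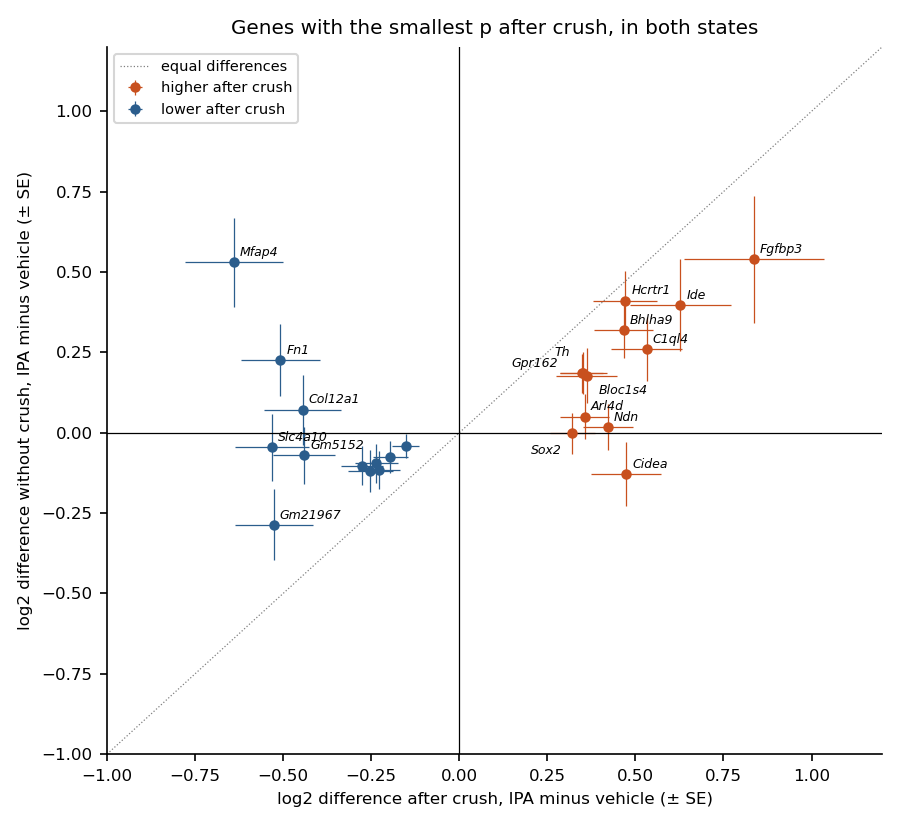
The log2 difference between IPA and vehicle after crush (horizontal axis) is set against that without crush (vertical axis) for the 24 leading genes, with bars of 1 standard error; orange genes are higher and blue genes lower after crush, and the dotted line marks equal differences. Hcrtr1 lies near the line, Ndn and Sox2 near 0 without crush, and Mfap4 and Fn1 above 0 without crush and below 0 after it; the 6 unlabelled points are Abca1, Ano6, 1700025G04Rik, Golgb1, Gas7 and Ahnak.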

How the data were processed

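Poly(A) RNA libraries of mouse L4 to L6 DRG were made with a directional kit, per the labels' protocols. The build mm10 and the tools FastQC 0.10.1, STAR 2.7.0, R 3.5.0, limma 3.38.3 and edgeR 3.24.3 come from the submitters' processing notes, which give them no role; which program counted reads, and on which annotation, is not given in the sources used here. For all 44345 genes the authors deposited values called FPKM that behave as CPM, with no gene length divided out: in each library 100.0% of values were whole multiples of 1 step (tolerance 1e-06), worth 0.0130 to 0.0199 per read, from which the reads were recovered. Levels of different genes are therefore not compared.

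Tested were the 15274 genes that reached 0.5 in 3 or more of the 6 crushed-nerve libraries. All 12 libraries entered 1 limma-trend fit (limma 3.58.1, R 4.3.3) of log2(value + 0.5) with 4 group means and 8 residual degrees of freedom, and p-values were adjusted by Benjamini-Hochberg over all tested genes. edgeR 4.0.16 (quasi-likelihood) and DESeq2 1.42.0 were run on the recovered reads, and the fit was tested on simulated data. A rule picked the 12 genes with the smallest limma p in each direction (mean of at least 1) and DESeq2's calls, which are all given. It also picked a fixed set and, for each list, up to 3 measured members of smallest p. Of these only some are given, and that choice was made with their values known. Further list members and Btaf1, Cpeb3, March5, Isl2, Dbh and Cyp3a11 were named after their values were seen. The members and the 32 lists (740 entries, 4 unmatched) were chosen with earlier results of these data known. Gene positions are from GENCODE M21 (GRCm38). Replicate numbers did not pair the libraries.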

Additional observations from a re-analysis of the deposited data

Results flagged for a closer look

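In DESeq2's test of the difference between the IPA effects after and without a crush, 3 genes passed. Mfap4 had an interaction of -1.56 (log2, adjusted p = 0.00572): its level was 1.69 ± 0.41 under vehicle and 0.892 ± 0.120 under IPA after crush, and 1.39 ± 0.24 and 2.22 ± 0.25 without (SD, n = 3 each). The metalloproteinase gene Adam8 had an interaction of -0.81 (adjusted p = 0.0165), with 87.9 ± 10.8 and 82.1 ± 5.0 after crush and 5.25 ± 1.03 and 8.66 ± 0.60 without. Fn1 had an interaction of -0.74 (adjusted p = 0.0306), with 46.6 ± 3.4 and 32.6 ± 0.6 after crush and 29.3 ± 3.0 and 34.6 ± 6.7 without. In limma none of the 3 passed (adjusted p = 0.647 for Mfap4 and 1.00 for Adam8 and Fn1).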

How the results depend on the processing

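Chosen after seeing the data were gene-by-gene array weights and leaving out each uncrushed library in turn. The number of genes called after crush was also 0 in edgeR, with only the 6 libraries, with the replicate block, with the GC and length trend removed, at a threshold of 0.1, under quantile or median-of-ratios scaling, with pseudocounts of 0.1 or 1 and with a filter of 1 or none. DESeq2 called 15, array weights 4133 and gene-by-gene weights 334 (240 higher; 22 of the 24 leading genes and all 15 DESeq2 calls among them); the iterative array weights did not converge and put a weight of 44 on IPA replicate 2. Leaving out 1 library gave 0 to 1. The interaction had 2246 calls with array weights, 2 with gene-by-gene weights and 3 with DESeq2. The IPA effect averaged over both states had 0 calls in limma (3122 at an unadjusted p under 0.05) and edgeR, 5317 and 3138 with the weights, 441 in DESeq2, 230 without both libraries that stood apart and 0 to 7 with 1 library left out (3 without crushed-nerve IPA replicate 3, 7 without vehicle replicate 3 of the uncrushed group). Genes at an unadjusted p under 0.05 after crush numbered 1096 with the replicate block, 1902 with no filter, 768 with only the 6 libraries, 6064 and 2998 with the weights, and 744 to 2084 with 1 library left out (764 without IPA replicate 1, 744 without IPA replicate 2, 2084 without IPA replicate 3). The cause of these shifts was not tested.

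Of 105 named genes, 10 changed sign under at least 1 alternative. In limma's main fit no gene of any kind had been called. With array weights, gene-by-gene weights and both libraries that stood apart removed, the log2 difference of Ahr was -0.008, -0.005 and -0.019, of Col1a2 -0.052, -0.066 and -0.114, of S100a8 -0.199, -0.191 and -0.276, and of Ltf -0.595, -0.457 and -0.379. Col1a2 was -0.001 with quantile normalization, -0.016 with the GC and length trend removed and -0.003 in edgeR. Parp9 was 0.136 and 0.058 with the weights and 0.015 once the GC and length trend was taken out, Cox6a2 -0.004 with array weights and -0.032 with a pseudocount of 0.1, Sprr1a -0.002 with array weights and Acta1 0.206 without both libraries. With 1 library left out, the difference ranged from -0.022 to 0.04 for Ahr, -0.211 to 0.822 for S100a8 and -0.206 to 0.893 for Ltf (lowest without IPA replicate 3), -0.012 to 0.073 for Gap43, -0.039 to 0.101 for Cpeb3, -0.142 to 0.112 for Parp9, -0.456 to 0.556 for Cox6a2 and -0.125 to 0.101 for Col1a2. Samples with the same replicate number did not deviate together (correlations of -0.06, 0.04 and -0.27 for numbers 1, 2 and 3), so the replicate block pairs libraries by number only. With 3 pools a group, the median standard error of 0.0828 sets what could be seen.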
